A study of Mus musculus with 4 samples.

Results

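Interferon-stimulated genes were followed in liver and spleen of mice fed a nucleoprotein diet or a control diet and injected with lipopolysaccharide (LPS). The list held 43 genes, taken by name and grouped by role into 9 signal regulators, 13 effectors directed against RNA and nucleotides, 10 GTPases, 3 genes of the p200 family and 8 membrane and other effectors. A probe was found for 42 of the 43 by the gene name or accession in the array files, older names included, which came to 68 of 41174 probes and 42 of 27670 genes. No probe was matched to Xaf1. The mice were C57BL/6J males, 7 weeks old. Per the study's design text, the nucleoprotein group ate a purified diet with 1.2% of a nucleoprotein product, in which nucleic acids reached 0.5%, and the control group ate the purified diet alone, with 0.03% nucleic acids. Feeding lasted 4 weeks, all mice of both groups then received LPS at 10 mg/kg, and organs were taken 6 h later. The housing notes name a standard chow instead, and the design text was followed. RNA was pooled by diet within each organ, how many mice made up a pool is not stated in the sources used here, and no mice without LPS were analysed here, so no value below shows induction by LPS.

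Interferons are secreted proteins that warn cells of infection. LPS, a component of bacterial cell walls, acts through Toll-like receptor 4, whose TRIF branch switches on interferon beta, and natural killer and T cells add interferon gamma. Type I interferons activate a complex with Stat2 and Irf9 that binds the interferon-stimulated response element (ISRE), and interferon gamma acts through gamma-activated sites (GAS). The genes turned on in this way block viral RNA, attack the vacuoles of intracellular microbes, sense DNA and limit the signal itself.

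Each organ was measured on 2 dual-channel Agilent arrays that carried both diet pools with opposite dyes, the nucleoprotein pool in Cy5 (red) on replicate 1 and in Cy3 (green) on replicate 2. The labels do not say whether the pools numbered 1 and 2 were the same, and they were counted as 1 pool per diet and organ. The diet ratio is the log2 of nucleoprotein over control intensity of the same probe, so that a value of 0.58 is 1.5-fold, and its SD is that of the 2 arrays. If the pools were the same, the SD covers labelling and array error, not the spread between mice. Counted as 1 pool a group, they allowed no test of diet. The number of arrays limits the precision. A gene was called higher or lower when it passed 1.5-fold the same way on both arrays. In bulk RNA such as this, fewer cells of a type and less RNA per cell cannot be told apart.

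The representing probe of each of the 42 genes, the brightest where there were several, was well above background in every channel kept. A spot given an outlier mark left 1 array for Irf7 in liver and for Stat2, Usp18 and Rsad2 in spleen, so 41 members were measured on both arrays in liver, 39 in spleen and 38 in both organs. Tissue markers matched the labels: 14 of 14 measurable hepatocyte markers were brighter on liver arrays than on spleen arrays, and 7 of 7 B cell markers were dimmer. Some members belong to families of near-identical genes (Oas1, Gbp, Tgtp, Ifi200), so the values of Oas1a, Gbp2, Gbp3, Gbp4, Tgtp1 and of Ifi203, Ifi204 and Ifi205 may hold RNA of relatives. The files carry older names, under which the probe called Gbp4 there is Gbp3 by its accession and the one called Mpa2 is Gbp4.

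Promoter sequences of these genes were examined for the elements through which interferons act. RefSeq promoter windows (GRCm38.p6, 250 bases before to 50 after a start) were matched for 33 of the 43 listed genes. The ISRE core, which is GAAA, then 2 bases of any kind, then GAAA, was searched on both strands. The windows below belong to members with a match before the start site and are shown because the core, often in overlapping copies, is the letter pattern that the interferon-activated complex reads. They are written 5′ to 3′ on the strand of the gene, and capitals mark each match on either strand.
Isg15, chr4:156200860-156200899, minus strand: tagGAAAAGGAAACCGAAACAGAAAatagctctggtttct
Ifit1, chr19:34640785-34640828, plus strand: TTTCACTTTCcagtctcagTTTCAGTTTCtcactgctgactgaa
Ifit3, chr19:34583392-34583431, plus strand: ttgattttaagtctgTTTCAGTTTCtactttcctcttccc
Oas3, chr5:120777710-120777749, minus strand: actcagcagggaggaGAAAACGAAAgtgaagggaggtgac
Rsad2, chr12:26456548-26456587, minus strand: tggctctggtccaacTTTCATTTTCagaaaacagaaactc
Gbp2, chr3:142620589-142620628, plus strand: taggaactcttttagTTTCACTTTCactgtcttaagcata
Ifi203, chr1:173942503-173942542, minus strand: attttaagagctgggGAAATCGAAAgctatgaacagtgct
Bst2, chr8:71537572-71537611, minus strand: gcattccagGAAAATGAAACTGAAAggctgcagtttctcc
Stat2, chr10:128270261-128270300, plus strand: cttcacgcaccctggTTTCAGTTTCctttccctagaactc

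The ISRE core was in a promoter window of 18 of 33 matched members, or 54.5%, and in 1079 of all 27025 genes with a window, or 3.99%. Counted over windows, 3.44% of 32851 held it. The Isg15 window held 3 overlapping matches in a row, centred 61 bases before the start, and that of Ifit1 held 2 separate ones, both read on the opposite strand. By role, the core was in 5 of 6 GTPases, 2 of 2 p200 genes, 6 of 12 RNA-directed effectors, 3 of 8 regulators and 2 of 5 membrane and other effectors. The GAS core TTCNNNGAA was in 11 of 33 members (33.3%) and in 9.55% of all genes. It was found without an ISRE core for Irf1 and Irf8, which interferon gamma is known to switch on, and for Ifit2, Samhd1, Isg20 and Ifi35. No promoter was matched for Usp18, Oas2, Mx1, Mx2, Gbp4, Iigp1, Ifi204, Rtp4, Parp9 and Parp14. A match is a run of letters and says nothing of binding.

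**Figure D1:**
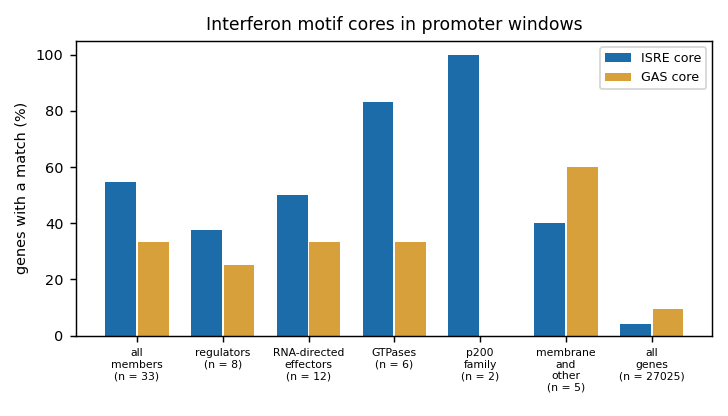
Share of genes (%) whose promoter window holds an ISRE core (blue) or a GAS core (yellow), for all matched members, for each role group and for all genes with a window, with the number of genes under each pair of bars. The ISRE core is in 54.5% of members and 3.99% of all genes.

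In liver, no interferon-stimulated gene differed between the nucleoprotein and the control pool by the bound used. Of 41 members measured on both arrays 0 were called higher and 0 lower, where 0.0122% of all 16406 measurable genes were called higher and 0.317% lower (0.329% in all). The means ran from -0.35 for Samhd1 to 0.30 for Iigp1, and 38 of 41 lay within 1.2-fold. On the single arrays 38 of 41 lay within 1.5-fold on both. The median was -0.04, against 0.01 for all genes, with 11 means above 0 and 30 below. That lean rested on 1 array: the members' median was 0.01 on replicate 1 and -0.24 on replicate 2.

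Spleen gave the same count. Of 39 members 0 were called higher and 0 lower, beside 0.215% and 0.226% of 18150 measurable genes (0.441% in all). The means ran from -0.17 for Oasl1 to 0.26 for Isg15, and all 39 lay within 1.2-fold in their means and within 1.5-fold on each array. The median was 0.01, against -0.00 for all genes, with 26 means above 0 and 13 below, and the arrays gave 0.06 and -0.02. At a looser bound of 1.2-fold on both arrays, 0 members were called in either organ, where 0.183% of liver genes were higher and 0.798% lower, and 0.529% and 0.733% of spleen genes.

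**Figure D2:**
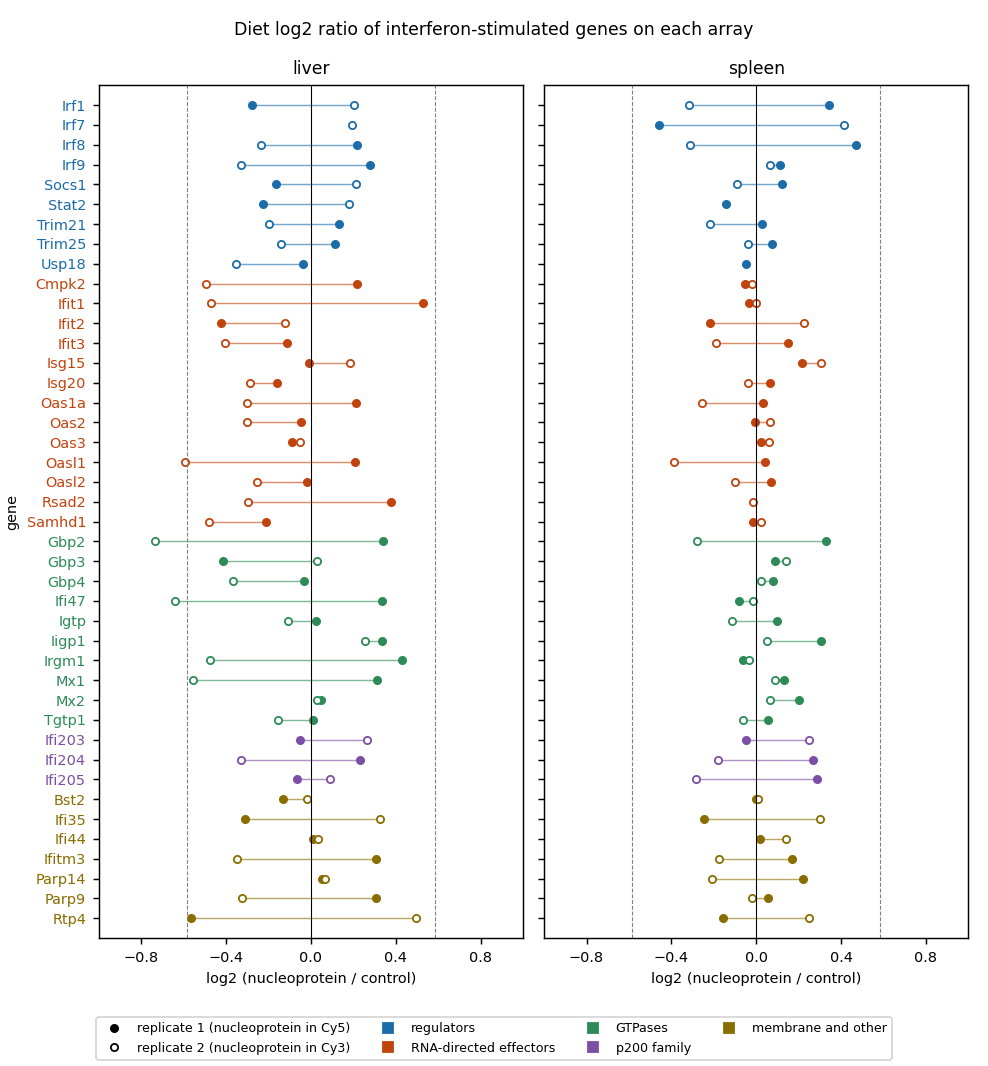
Diet log2 ratio (nucleoprotein over control, x axis) of each of the 42 genes on the replicate 1 array (filled) and the replicate 2 array (open) in liver and spleen, coloured by role, with dashed lines at 1.5-fold and a line joining the arrays. Most joining lines cross 0, and 3 liver points, all of replicate 2, lie beyond a dashed line.

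Most regulators changed sign between arrays, 7 of 8 in liver and 6 of 7 in spleen. So did most genes, 10818 of 16406 in liver and 10836 of 18150 in spleen. Their median was -0.02 over 8 members in liver and 0.01 over 7 in spleen. Irf1, a transcription factor induced by interferon gamma, had ratios of -0.28 and 0.21 on the liver arrays and 0.34 and -0.32 on the spleen arrays. Irf8, a factor of myeloid and B cells, had 0.22 and -0.24 in liver and 0.47 and -0.31 in spleen. By these probes neither gene had the same sign on both arrays of an organ, while the other Irf1 probe had -0.15 and -0.11 in liver. Irf7, the factor that amplifies interferon alpha production, had 0.19 on its 1 liver array and -0.46 and 0.41 in spleen, the widest gap of any member there. Usp18, a protease that removes Isg15 from proteins and restrains the type I receptor, was the regulator farthest from 0 in liver, at -0.04 and -0.35 (mean -0.19 ± 0.22), and stood at -0.05 on its 1 spleen array. Trim21, a cytosolic antibody receptor and ubiquitin ligase, was the farthest in spleen at 0.03 and -0.22. Stat2, a factor of the type I interferon signal, had -0.23 and 0.18 in liver and -0.14 on its 1 spleen array. Irf9, Socs1 and Trim25 had means between -0.03 and 0.09 in both organs.

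The RNA-directed effectors had the lowest liver median of the role groups, -0.14 over 13 members. By representing probes, 7 of the 13 were below 0 on both arrays and 0 above on both. Of all 16406 measurable liver genes, 2228 were below 0 on both arrays and 3360 above. The lean lay mostly on replicate 2, with a group median of -0.30 against -0.02 on replicate 1. Of these 7, Isg20 and Oas2 had other probes that changed sign, at -0.36 and 0.16 and at -0.02 and 0.07. The other probes of Samhd1, Ifit2, Ifit3 and Oas3 stayed below 0. Samhd1, which breaks down deoxynucleotides, had -0.21 and -0.48 (mean -0.35 ± 0.19, a ratio of 0.79). Its levels, as normalized log2 intensities, were 13.38 and 13.29 in the nucleoprotein pool and 13.59 and 13.77 in the control pool. Its other probe gave -0.06 and -0.33. In spleen the representing probe stood at -0.02 and 0.02 and the other probe at 0.37 and 0.08.

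Ifit2 and Ifit3, members of a family that binds foreign RNA and stalls its translation, were the next lowest in liver. Ifit2 had -0.43 and -0.12, and its other probe -0.48 and -0.43. Ifit3 had -0.11 and -0.40, and the other probe of that name -0.02 and -0.45. The array files place that probe at 34313887 to 34313946 of chromosome 19, apart from the representing one at 34289919 to 34289978. Whether both read the same gene was not tested. Both changed sign in spleen, where Ifit2 had -0.22 and 0.23 and Ifit3 0.15 and -0.19. Ifit1, their neighbour on chromosome 19, went opposite ways on the liver arrays at 0.53 and -0.47 and stood at -0.03 and -0.00 in spleen.

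Isg15, a ubiquitin-like protein joined to other proteins after interferon, had the highest spleen mean. Its ratios were 0.22 and 0.31 in spleen (mean 0.26 ± 0.07, a ratio of 1.20) and -0.01 and 0.19 in liver. The spleen levels were 14.97 and 14.87 in the nucleoprotein pool, against 14.76 and 14.57 in the control pool. The difference was below the 1.5-fold bound. The file places this probe on chromosome 17 (44534906 to 44534965 of build mm7), while the promoter of Isg15 lies on chromosome 4 of GRCm38.p6, and it is the gene's only probe here.

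The oligoadenylate synthetases, which make the messenger that activates RNase L, and their relatives did not move together. Oas1a had 0.21 and -0.30 in liver and 0.03 and -0.26 in spleen. Oasl1, known in mouse to hold back translation of Irf7, had 0.21 and -0.59 in liver and 0.04 and -0.39 in spleen, where its mean of -0.17 was the lowest. Oas3 had -0.09 and -0.05 in liver and 0.02 and 0.06 in spleen. Rsad2 (viperin), which makes a chain-terminating nucleotide against viral polymerases, had 0.38 and -0.30 in liver and -0.01 on its 1 spleen array. Oas2, Oasl2, Isg20 and Cmpk2 had liver means between -0.22 and -0.14 and spleen means between -0.04 and 0.03.

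The GTPases, which attack the vacuoles of intracellular microbes or viral capsids, had a median of -0.10 in liver and 0.04 in spleen over 10 members. Iigp1, an immunity-related GTPase that coats parasite vacuoles, had the highest liver mean, with 0.33 and 0.26 (0.30 ± 0.06, a ratio of 1.23), and 0.31 and 0.05 in spleen. Its liver levels were 15.35 and 15.71 in the nucleoprotein pool and 15.01 and 15.46 in the control pool, and these overlapped between arrays. Mx2, of the dynamin-like Mx family, had 0.05 and 0.03 in liver and 0.20 and 0.07 in spleen. Mx1, of which C57BL/6 mice are known to carry a defective allele, had 0.31 and -0.55 in liver and 0.13 and 0.09 in spleen.

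Gbp2, a guanylate-binding protein, showed the widest liver gap of all members, at 0.34 and -0.74, and had 0.33 and -0.28 in spleen. Irgm1, a regulator of the other immunity-related GTPases, had 0.43 and -0.48 in liver and -0.06 and -0.03 in spleen. Gbp2, Ifi47 (-0.64) and Oasl1 were the 3 of 41 members past 1.5-fold on replicate 2 alone in liver, where 1.76% of all genes were, and 0 members were on replicate 1, where 1.78% of all genes were. In spleen 0 members passed on replicate 1 or on replicate 2, against 0.634% and 0.771% of all genes. Gbp3, Gbp4, Igtp, Tgtp1 and Ifi47 had means between -0.20 and -0.04 in liver and between -0.05 and 0.12 in spleen.

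The p200 family, DNA-binding proteins of the nucleus and cytosol, had medians of 0.01 in liver and 0.04 in spleen. Ifi203 was the member farthest from 0 in both organs, with -0.05 and 0.26 in liver and -0.05 and 0.25 in spleen. Ifi204 had 0.23 and -0.33 in liver and Ifi205 -0.06 and 0.09.

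Among the membrane and other effectors the medians were -0.01 in liver and 0.02 in spleen. Bst2 (tetherin), which holds budding viruses at the cell surface, had -0.13 and -0.02 in liver and -0.00 and 0.01 in spleen, the smallest gap between spleen arrays of any member. Rtp4, an interferon-induced chaperone of receptors, went opposite ways at -0.57 and 0.50 in liver and -0.16 and 0.25 in spleen. Ifi44 had 0.01 and 0.04 in liver and 0.02 and 0.14 in spleen, and its other probe 0.34 and -0.25 in liver. Parp14, an ADP-ribosyltransferase, had 0.05 and 0.07 in liver and 0.22 and -0.21 in spleen. Ifitm3, Ifi35 and Parp9 had means between -0.02 and 0.03 in both organs.

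The 2 arrays of an organ disagreed in sign for most members. In liver 14 of 41 members had the same sign on both arrays, against 34.1% of all genes, and in spleen 13 of 39, against 40.3%. The members with opposite signs were mostly above 0 on replicate 1 and below on replicate 2, 18 of 41 in liver and 18 of 39 in spleen, where 37.9% and 34.3% of all genes had that order. On replicate 1, 22 of 41 members were above 0 in liver and 27 of 39 in spleen, against 58.3% and 54.7% of all genes. On replicate 2 the counts were 13 of 41 and 17 of 39, against 48.6% and 45.8%. Across members, which are not independent replicates, the arrays correlated at -0.62 in liver (n = 41) and -0.65 in spleen (n = 39), and across all genes at 0.10 and 0.06. The all-gene figures include genes far from 0 on both arrays, such as pancreatic acinar markers with a liver median of -4.10. No member lay so far from 0, so the correlations of members and of all genes are not like for like. Past 1.5-fold in opposite directions were 0 members in either organ, against 0.451% of liver and 0.022% of spleen genes. The SD of the arrays had a median of 0.24 over members in liver and 0.12 in spleen, against 0.13 and 0.10 over all genes.

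**Figure D3:**
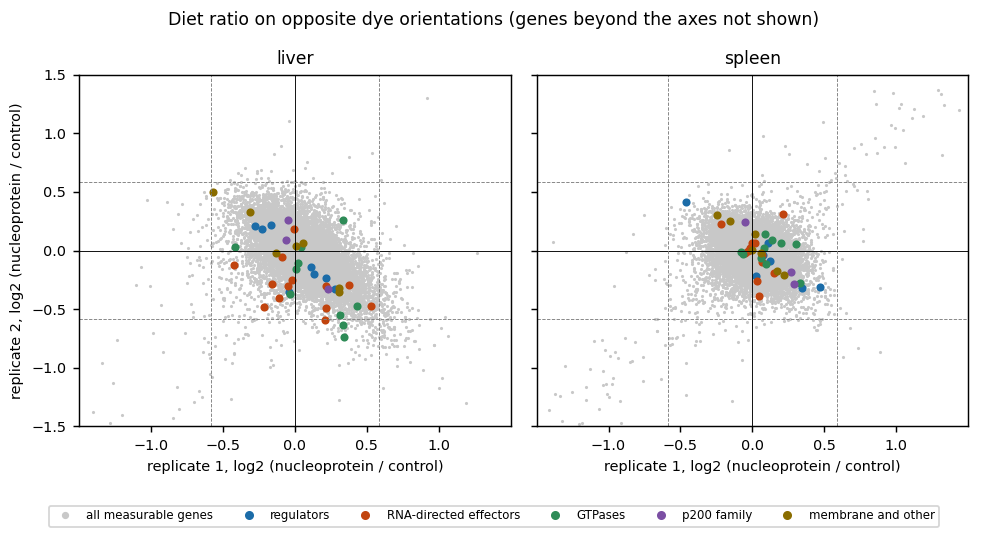
Diet log2 ratio on replicate 1 (x axis) against replicate 2 (y axis), which carry opposite dyes, for all measurable genes (grey) and the interferon-stimulated genes (coloured by role), with dashed lines at 1.5-fold. The coloured points run from upper left to lower right, with a correlation of -0.62 in liver and -0.65 in spleen.

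The difference between arrays often varied among probes of the same gene. For 19 members with several probes well above background in every channel, replicate 1 minus replicate 2 had opposite signs on probes of the same gene for 10 in liver and 8 in spleen. Its range among probes of a gene had a median of 0.42 in liver and 0.29 in spleen, while that of the mean ratio had one of 0.05 and 0.08. Cmpk2, a mitochondrial nucleotide kinase, shows this in liver: its representing probe had 0.22 and -0.49 and its other probe -0.63 and 0.12, with means of -0.14 and -0.26. No member had probes whose mean ratios lay more than 1 log2 unit apart.

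Of the 38 members measured on all 4 arrays, Mx2, Iigp1 and Ifi44 were above 0 on every array (3 of 38, where 5.32% of 15317 genes were). Below 0 on every array were 0 of 38, where 3.38% of genes were. None of Mx2, Iigp1 and Ifi44 passed 1.5-fold on any array. By their representing probes, Oas3 and Gbp4 lay below 0 on both liver arrays and above 0 on both spleen arrays. The share of all genes with this order is not given here, so it cannot be read as particular to the members. The other Oas3 probe had -0.15 and 0.05 in spleen.

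Genes that produce or carry the interferon signal were counted in the same way. The list of 16 ligands had 5 measurable members in liver and 10 in spleen, that of 18 receptors, kinases and factors had 18 in each, and a list of 54 other interferon-stimulated genes had 45 and 46. In each list and organ 0 genes were called. Interferon gamma, Ifng, had -0.05 and 0.26 in liver and -0.16 and -0.23 in spleen, with spleen levels averaging 13.9 in the nucleoprotein pool and 14.1 in the control pool. Interferon beta, Ifnb1, was well above background in 0 of 4 channels in liver and in 4 of 4 in spleen, with spleen ratios of 0.06 and 0.01. Its spleen levels were low, averaging 6.59 in the nucleoprotein pool and 6.55 in the control pool, against 6.21 and 6.20 in liver. The other ligands apart from Ifng were dim as well. The offset shrinks ratios of such probes, so ratios near 0 and the lack of calls say little about these ligands. The medians of the other interferon-stimulated genes were -0.07 in liver and -0.01 in spleen, close to those of the members.

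Markers of other cells did differ in the same pools. In spleen 8 of 14 hepatocyte markers were called higher in the nucleoprotein pool, with a median of 0.99 and means from 0.03 to 2.21. Pancreatic acinar markers were lower in 10 of 10 cases in liver, with a median of -4.10, and in 9 of 10 in spleen, with a median of -1.25. Neutrophil markers had medians of 0.22 in liver and 0.16 in spleen, with 0 called. Their part in the members' values was not tested.

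Some interferon-stimulated genes differed by more than 2-fold in level between liver and spleen, while most did not. Levels of the same probe were set liver minus spleen in 4 array pairs of each diet, and a gene was called where all 8 pairs passed 2-fold. Of 38 members measured on every array 2 were brighter in liver and 6 dimmer, beside 11.9% and 15.2% of 18975 genes, and 28 had means within 2-fold. The median was 0.01 (-0.14 between nucleoprotein pools and 0.05 between control pools), against -0.09 for all genes.

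Cmpk2 and Ifit2 were the brighter ones. Cmpk2 (probe on chromosome 12, 24315074 to 24315133 of mm7) had levels of 13.85 and 13.54 in nucleoprotein livers and 13.63 and 14.03 in control livers, against 11.54 and 11.57 in nucleoprotein spleens and 11.60 and 11.59 in control spleens. The difference averaged 2.19, or 4.55-fold, and ran from 1.96 to 2.44 over the 8 pairs. Ifit2 (chromosome 19, 34277058 to 34277117) had 13.75 and 13.89 in nucleoprotein livers and 14.17 and 14.01 in control livers, against 12.18 and 12.20 in nucleoprotein spleens and 12.40 and 11.97 in control spleens. It was 3.40-fold brighter in liver, with pairs from 1.55 to 2.20. In both genes every liver value lay above every spleen value in each diet.

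Rsad2, beside Cmpk2 on chromosome 12 and read in the opposite direction, was 0.66 higher in liver over 4 pairs by its representing probe, and averaged 1.88 and was called brighter when its 3 probes were averaged. Ifit1 stood at 0.78 with pairs from 0.12 to 1.49. Ifit3 stood at 0.43, or -0.03 when both probes of that name, which may not read the same gene, were averaged. Usp18 averaged 1.21 over its 4 pairs, which ran from 0.95 to 1.33, and Mx1 0.75.

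The p200 genes and Irf8 lay on the other side. Ifi203 (chromosome 1, 173886462 to 173886521) had 9.82 and 10.24 in nucleoprotein livers and 9.87 and 9.97 in control livers, against 12.90 and 12.90 in nucleoprotein spleens and 12.95 and 12.65 in control spleens. It was 7.34-fold dimmer in liver, at -2.88 with pairs from -3.08 to -2.66. Irf8 (chromosome 8, 119391398 to 119391457) averaged -2.78, or 6.85-fold dimmer, with pairs from -3.19 to -2.28. Ifi205 and Ifi204, which lie with Ifi203 on chromosome 1, averaged -2.13 and -1.63, so 3 of 3 p200 genes were dimmer in liver.

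The synthetases of chromosome 5 split. Oas3 averaged -1.87 and Oas2 -1.47, both called dimmer in liver. With all probes of a gene averaged, Oas3 stood at -1.12 and was still called, and Oas2 at -0.87 and was not. Oas1a averaged -1.14 with pairs from -1.65 to -0.69, while Oasl2 stood at -0.26 and Oasl1 at 0.30. Irf1, on chromosome 11, averaged -1.33 with pairs from -1.64 to -0.98 and was not called.

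With the scaling used, the GTPases and the membrane and other effectors had no member called between the organs. Of 10 GTPases 0 were called, all had means within 2-fold, and the median was 0.15, from Gbp4, 1.99-fold dimmer in liver, to Mx1 at 0.75. Of 7 membrane and other effectors 0 were called and 7 lay within 2-fold, among them Bst2 at 0.05 and Ifitm3 at 0.16. Isg15 stood at 0.36. With the processed signals of the scanner software (Feature Extraction), Irgm1 (1.39) and Isg15 (1.33) were called brighter in liver. Mx1, Mx2, Gbp2, Igtp, Iigp1, Ifi47 and Ifitm3 then averaged 1.05 to 1.34 without a call. The other members of the GTPase and membrane groups stayed within 2-fold. With the scaling used, the medians were -0.69 for regulators, 0.15 for RNA-directed effectors, -2.13 for p200 genes and 0.05 for membrane and other effectors.

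**Figure D4:**
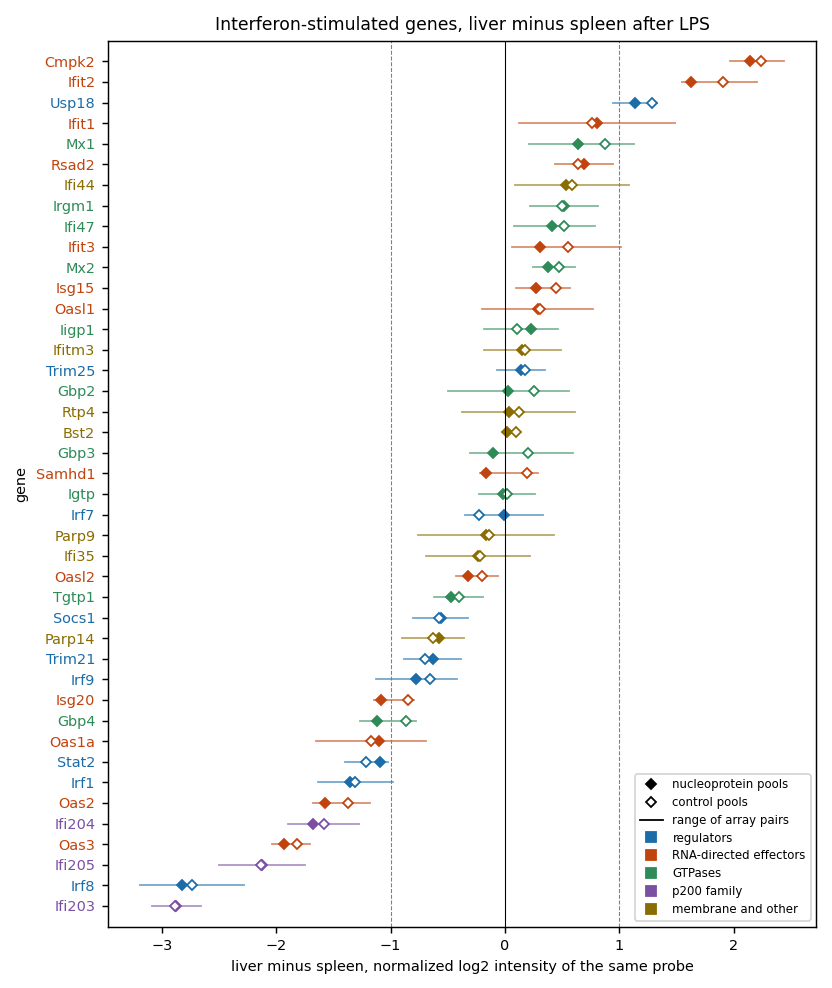
Liver minus spleen level (normalized log2 intensity of the same probe) of the 42 genes, sorted, with the mean of the nucleoprotein pools (filled), the mean of the control pools (open) and the range over array pairs (line), and dashed lines at 2-fold. The lines of Cmpk2 and Ifit2 lie wholly beyond 2-fold on the liver side, and those of Ifi203, Irf8, Ifi205, Oas3, Ifi204 and Oas2 on the spleen side, as does that of Stat2, which has 4 pairs and was not among the 38 members counted. Both means of Usp18, Irf1 and Oas1a also lie beyond 2-fold, as do the nucleoprotein means of Isg20 and Gbp4, with lines that cross it.

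Cell type markers also differed between the organs. Between liver and spleen the median difference was 7.27 for hepatocyte markers, -4.42 for B cell markers (7 of 7 dimmer in liver), -2.66 for T and NK cell markers (8 of 11), -1.33 for macrophage and Kupffer cell markers (4 of 9 dimmer, 2 brighter), -1.77 for plasmacytoid dendritic cell markers (4 of 5) and -0.85 for neutrophil markers (1 of 8). Ifng was at -4.20. The part of cell makeup in the members' organ differences was not tested. By promoter, the median organ difference was 0.02 for 18 members with the ISRE core and -0.05 for 14 without it. The diet medians were -0.03 and -0.14 in liver and -0.00 and 0.01 in spleen for the same members, those with 1 array included.

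**Figure D5:**
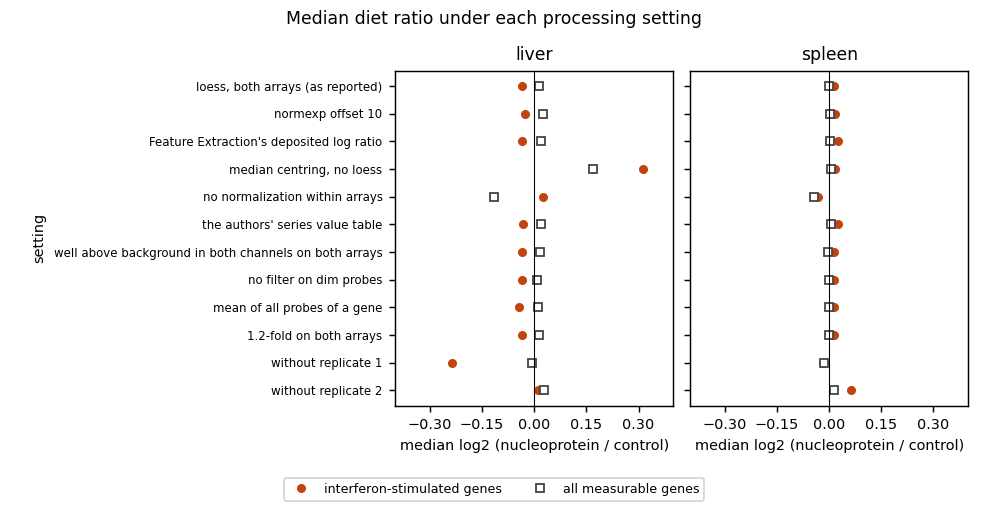
Median diet log2 ratio (x axis) of the interferon-stimulated genes (circles) and of all measurable genes (squares) under each way of processing the arrays (rows), for liver and spleen. In liver, median centring moves the members to 0.31 and all genes to 0.17, and leaving out replicate 1 moves the members to -0.24, while the spleen medians stay between -0.03 and 0.06.

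The small liver shift depended on the normalization. With each array centred on its median in place of loess the members' liver median was 0.31 and that of all genes 0.17, so the members lay 0.14 above all genes, whereas with loess they lay 0.05 below (-0.05). In no setting that kept both arrays was a member called in either organ.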

How the data were processed

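Dual-channel Agilent arrays of liver and spleen RNA, pooled by diet, were used (4 arrays on 1 slide). Per the file headers, the deposited scanner files give for each spot the mean and background intensity of both channels, processed intensity, the log10 ratio of red over green, and flags. The submitters' processing notes name Agilent Feature Extraction 9.5.3.1, and the step version in the headers was 9.5.1.1. The authors' series value table is a score without stated scale. Set against Feature Extraction's log ratio, it was the linear red over green ratio for 100% of spots compared (tolerance 0.02 log2). Only spots well above background in both channels were compared, without those whose red intensity was far below green. The table had a minus sign on replicate 1 whose purpose is unknown, no further centring, and column medians of -0.92, 0.92, -0.96 and 0.96.

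Computed here with limma 3.58.1 in R 4.3.3: normexp background correction (offset 50), loess within arrays with controls at weight 0, ratios turned to nucleoprotein over control by the dyes in the labels, spots of a probe averaged, and channel levels after Aquantile scaling. Of 43379 gene spots per array between 189 and 354 marked as outliers were left out, and 0 were saturated. In a channel, the share of gene spots clearly over background (Feature Extraction's flag) was 55.2% to 72.8%. The offset shrinks the ratios of dim probes. The procedure was tested on simulated data.

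Probes were named through a RefSeq table (GRCm38.p6), 22944 by accession and 9772 by symbol or synonym, while 8458 kept the file's name. Probe positions are those of the files (mm7), and no annotation of that build was used. A gene counted as measurable if, for 1 diet or both, that flag was set for its probe on the 2 arrays of the organ. No genome was used, and no p-value is given, because 1 pool per diet and organ, as counted here, leaves no spread between samples.

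Members and lists were chosen with earlier results of these data known. Named with values were the 3 highest and 3 lowest members per organ, the farthest from 0 per role, the 3 with most and least different arrays, the 5 most above and below 0 between organs, and those on 1 array, and, outside the list, Ifng and Ifnb1 (1 further gene of this rule is not reported here). Other members are named with ranges, or as neighbours, chosen after their values were seen.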

Additional observations from a re-analysis of the deposited data

Results flagged for a closer look

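The representing probes of Oas3 and Gbp4 had diet ratios of opposite direction in the organs on every array. Oas3 stood at -0.070 (mean of both arrays) in liver and 0.041 in spleen, while its other probe had -0.15 and 0.05 in spleen and a mean of -0.053, the direction seen in liver. Gbp4, a guanylate-binding protein, stood at -0.20 in liver and 0.050 in spleen. Neither organ's value passed 1.5-fold on any array, and the difference between organs was not tested. How many of all genes had such opposite directions is not given here, so no organ-specific effect of diet can be read from these values.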

How the results depend on the processing

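No paired analysis was possible because the dye swap already holds both diets on each array and no result comes from a test. Alternatives were run for the diet ratios and for the levels. For liver, median centring gave a members' median of 0.312 (all genes 0.170), and leaving out 1 replicate gave medians from -0.236 to 0.011 and from 0 to 3 members past 1.5-fold lower. The 3 without replicate 1 were Gbp2, Ifi47 and Oasl1. For the level of liver minus spleen, scaling each channel to its 75th percentile gave a median of 0.615 (all genes 0.408). Feature Extraction's processed signals gave 0.854 (all genes -0.042) with 5 members brighter in liver, namely Cmpk2, Ifit2, Ifit3, Isg15 and Irgm1. Leaving out 1 replicate gave -0.184 to 0.012. Cmpk2 and Ifit2 were brighter and Irf8, Oas3 and Ifi203 dimmer in liver in 8 of 8 settings, Oas2 and Ifi205 dimmer in 7 and Ifi204 in 6. Rsad2 was brighter in 1 of 8, with its probes averaged (1.88). The cause of these moves was not tested.

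Counts of all genes higher and lower moved more. In liver Feature Extraction's log ratios gave 28 and 106, median centring 0 and 32, no normalization 0 and 33, 1.2-fold 30 and 131, without replicate 1 30 and 258, and without replicate 2 196 and 96. In spleen the offset of 10 gave 66 and 54, Feature Extraction's log ratios 102 and 81, median centring 30 and 10, no normalization 3 and 0, 1.2-fold 96 and 133, and single arrays 52 and 88 or 58 and 57. Of the values of named members, 524 diet ratios stayed within the spread of the arrays and 88 moved, and 46 levels stayed and 23 moved. The shorter core GAAANNGAA raised the share of members with a match to 60.6%, and of all genes to 9.76%. Signal over background did not limit the members, all of which were well above it.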
